A study of Homo sapiens with 3 samples.

Results

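The regions described here lie on the short arm of human chromosome 3 (3p) in 786-O cells, an established clear cell renal carcinoma line. Members are the peaks on chromosome 3 that end at or before position 90500000 of hg19, whatever their strength. The rule uses position and no measured value, but it was set with earlier results of these data known. The members number 1048 of 35241 TEAD regions and 1519 of 52667 H3K27ac regions on chromosomes 1 to 22 and X. The long arm (3q, peaks starting at or after 93500000) served for comparison, with 1320 TEAD and 2013 H3K27ac regions. No peak of chromosome 3 fell between those bounds.

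The study made 3 chromatin libraries from cultures grown in RPMI medium with serum, with no treatment listed: TEAD chromatin immunoprecipitation (ChIP), H3K27ac ChIP, and input chromatin. Each has 1 library, and all come from a single cell line, so the differences given have no replicate check and none was tested. No peak list or signal of the input library was used here. Intervals are 95% intervals. They treat regions as independent and cover counting error only.

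TEAD proteins are the DNA-binding partners of YAP and TAZ, the co-activators that the Hippo kinase cascade restrains, and they bind mostly at distal enhancers. The label of the TEAD antibody does not say which family members it recognises. Acetylation of histone H3 at lysine 27 (H3K27ac) marks active promoters and enhancers. Clear cell renal carcinoma commonly loses a copy of 3p, and 786-O is known as a line without functional VHL. The arm carries VHL, which marks the hypoxia-inducible factors for degradation, and the chromatin regulators SETD2 (a histone methyltransferase), BAP1 (a histone deubiquitinase) and PBRM1 (a subunit of a SWI/SNF remodelling complex). In the order of protein-coding genes that RefSeq gives for this chromosome, counted from the short-arm end, VHL stood at place 46, SETD2 at 262, BAP1 at 388 and PBRM1 at 396. The arm held 501 such genes before PROS1, the first on 3q, which held 565. That table uses GRCh38, another build than that of the peaks, so no region was assigned to a gene.

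TEAD and H3K27ac regions were both spread more thinly over 3p than over 3q. TEAD had 11.6 regions per Mb on 3p (10.9 to 12.3) and 12.6 on 3q (11.97 to 13.35), a ratio of 0.916 (0.844 to 0.993). H3K27ac had 16.8 per Mb on 3p (16.0 to 17.7) and 19.3 on 3q (18.5 to 20.1), a ratio of 0.870 (0.814 to 0.930). Against the other 22 chromosomes the arm did not stand out, with ratios of 0.999 (0.940 to 1.063) for TEAD and 0.969 (0.921 to 1.020) for H3K27ac. Per protein-coding gene there were 2.09 TEAD and 3.03 H3K27ac regions on 3p, against 2.34 and 3.56 on 3q.

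The thinner spread came with long empty stretches. Between regions of 3p, 12 stretches of over 1 Mb held no region of either list, against 9 on 3q. With these left out, and on 3p also the empty ends of the arm, 67.8 Mb remained on 3p and 89.1 Mb on 3q. No end of 3q was left out. TEAD then had 15.5 regions per Mb on 3p (14.5 to 16.4) and 14.8 on 3q (14.0 to 15.6), a ratio of 1.04. H3K27ac had 22.4 on 3p (21.3 to 23.6) and 22.6 on 3q (21.6 to 23.6), a ratio of 0.992. These stretches and ends were defined by having no region of the same lists. Leaving them out had to raise density more on 3p, which lost more length, so the values are a description only. Ratios with the ends of 3p kept were not computed.

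Along 3p, region density differed between the telomeric, middle and centromeric parts, and was highest in the middle one. From 30 to 60 Mb there were 486 TEAD regions, 16.2 per Mb (14.8 to 17.7), and 717 H3K27ac regions, 23.9 per Mb (22.2 to 25.7). From the telomere to 30 Mb TEAD had 12.2 per Mb (10.95 to 13.48) and H3K27ac 17.3 (15.9 to 18.9). The part nearest the centromere, from 60 to 90.5 Mb, had only 6.46 TEAD (5.59 to 7.43) and 9.25 H3K27ac regions per Mb (8.20 to 10.4). None of these intervals overlapped one another within a list. The number of TEAD per H3K27ac region changed far less along the arm, at 0.702, 0.678 and 0.699 in the same order.

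The middle part was not dense throughout, since its bin from 35 to 40 Mb had 7.4 TEAD and 15 H3K27ac regions per Mb. In bins of 5 Mb the densest place on 3p was 45 to 50 Mb, with 123 TEAD and 179 H3K27ac regions. The bin from 10 to 15 Mb came next, with 118 and 173. Both exceeded the densest bins of 3q, which had 21.6 TEAD and 32.6 H3K27ac regions per Mb, against 24.6 and 35.8 from 45 to 50 Mb. At the other end, the bin from 85 to 90 Mb held 6 TEAD and 10 H3K27ac regions, and that from 75 to 80 Mb held 16 TEAD but only 8 H3K27ac regions. The longest stretch of 3p without any region ran for 3.41 Mb, from 82208231 to 85621053. At the bound of the arm, the last TEAD region of 3p ended at 88199664 (11.9-fold) and the first of 3q began at 93562740 (15.8-fold). For H3K27ac the last region of 3p ended at 88200053 (22.7-fold) and the first of 3q began at 93692286 (10.5-fold).

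**Figure D1:**
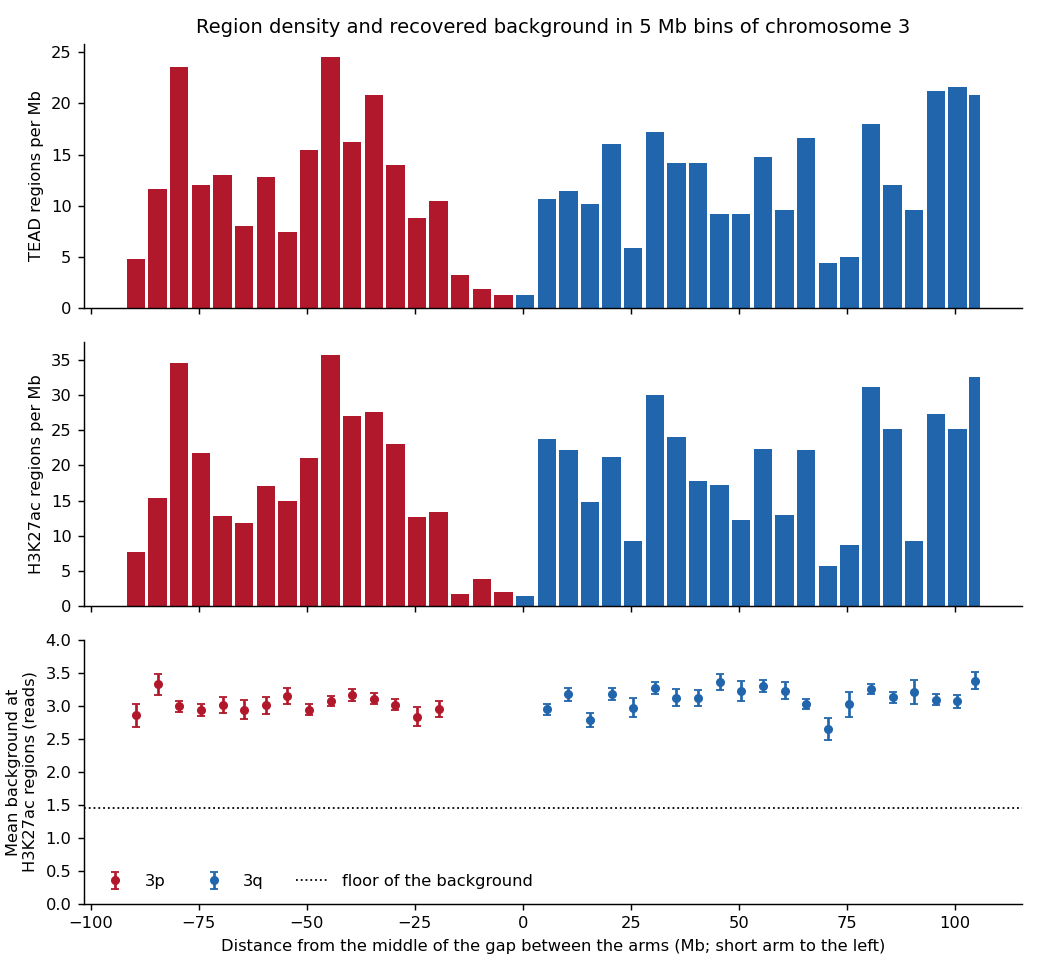
TEAD and H3K27ac regions per Mb (upper and middle panels) and mean recovered background at H3K27ac regions with its standard error (lower panel, bins of at least 20 H3K27ac regions) in 5 Mb bins of 3p and 3q, by distance from the middle of the gap between the arms. Density on 3p peaks at 24.6 TEAD and 35.8 H3K27ac regions per Mb and falls to 1.2 TEAD regions per Mb beside the gap. In the bins of 3p shown, the background lies between 2.84 and 3.33 reads. The sparse bins left out, from 75 to 90 Mb, averaged 3.26, 2.81 and 2.69 reads over 8, 19 and 10 regions.

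The background under a region counts control reads from the same place. For each peak the authors' fold and −log10 p were solved for the number of ChIP reads at the summit (the pileup) and the background that the peak caller expected there. The solution was a whole number of reads in 100% of regions, allowing 0.002 on the −log10 p scale. Every recovered background was either a floor, 1.30 reads for TEAD and 1.45 for H3K27ac, or a whole number of control reads in a window of the fragment length, 1 kb or 10 kb. The caller takes the highest of these, so a background says which window won and how many control reads it held. The floor stands for 68.8 control reads in 10 kb in both lists, and the control held 1.42 to 1.43 reads for each ChIP read. The sources used here do not name the control.

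Background on 3p was slightly below that on 3q and close to that of the rest of the genome. At TEAD regions it averaged 2.71 reads on 3p (2.65 to 2.77) and 2.86 on 3q (2.81 to 2.92), a ratio of 0.947 (0.918 to 0.976). At H3K27ac regions it averaged 3.03 reads on 3p (2.98 to 3.09) and 3.15 on 3q (3.10 to 3.19), a ratio of 0.964 (0.942 to 0.987). Against the other 22 chromosomes the ratio was 0.995 (0.972 to 1.019) at TEAD and 1.02 (1.01 to 1.04) at H3K27ac regions. The arms thus differed by a few percent, in the same direction in both lists, whose backgrounds may come from 1 control.

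Ranked from the highest, the background of 3p stood at place 13 of 24 at TEAD regions and place 8 of 24 at H3K27ac regions, with 3p, 3q and the other 22 chromosomes as the places. 3q stood at place 5 in both. Chromosomes 13 and X were lowest. At H3K27ac regions chromosome 13 averaged 1.86 reads and X 1.95, while chromosome 7 was highest with 3.67. No bin of 3p came near the low values: its 15 bins of at least 20 H3K27ac regions ran from 2.84 to 3.33 reads with a median of 3.01. The 21 such bins of 3q ran from 2.65 to 3.39 with a median of 3.13. On the other chromosomes 192 of 506 bins (37.9%) lay below the lowest bin of 3p and 71 above the highest. DNA copy number was not measured, and its part in these values was not tested. Because the caller takes the highest window and stops at a floor, a ratio of backgrounds is not a ratio of control reads.

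**Figure D2:**
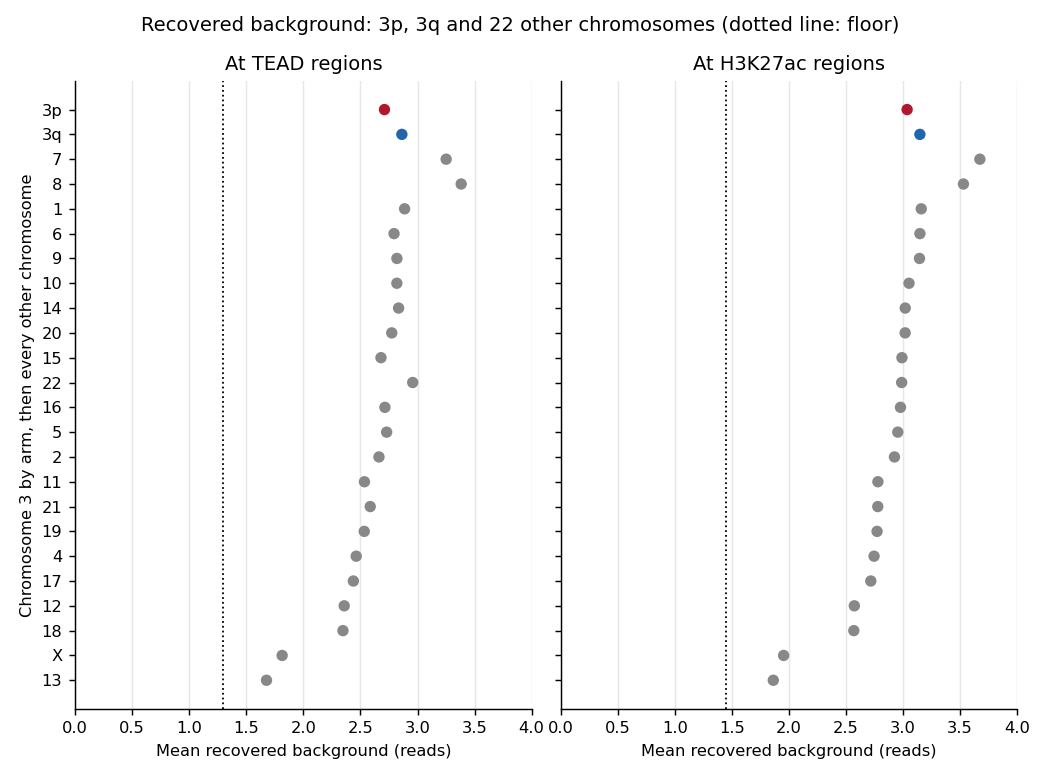
Mean recovered background (reads) at TEAD regions (left) and H3K27ac regions (right) for 3p, 3q and every other chromosome, the others ordered by the H3K27ac value, with the floor as a dotted line. 3p sits at 2.71 and 3.03 reads, just left of 3q at 2.86 and 3.15, and far right of chromosome 13 at 1.68 and 1.86.

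Few 3p regions reached the floor. It set the background of 3.24% of TEAD regions on 3p (2.33 to 4.50%) and 1.67% on 3q (1.10 to 2.51%). Among H3K27ac regions the shares were 1.58% on 3p (1.06 to 2.34%) and 0.646% on 3q (0.378 to 1.10%). The floor was thus reached more often on 3p than on 3q. Pooled over the other chromosomes it set 6.18% of TEAD and 6.48% of H3K27ac regions, but the H3K27ac share ran from 0.288% on chromosome 7 to 47.6% on chromosome 13, with 44.1% on X. The median over the 24 places was 2.845%, and chromosomes 1, 6, 7 and 10 lay below 3p.

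The 10 kb window gives the broadest count of control reads, and it set the background of 168 TEAD and 266 H3K27ac regions on 3p. At those TEAD regions it held a median of 97 control reads on 3p (interquartile range 85 to 111) and 104 on 3q (91 to 119). At those H3K27ac regions it held 103 on 3p (89.5 to 114) and 108 on 3q (97 to 122). The means were 99.1 reads on 3p and 106 on 3q for TEAD, and 102 on 3p and 110 on 3q for H3K27ac, ratios of 0.938 and 0.933. The arms kept the same order in this window, with interquartile ranges that overlapped broadly. Only regions where this window exceeded the narrower ones enter these counts. The 3 highest backgrounds at TEAD regions of 3p were all 7.02 reads, which is a fragment-length window, with folds between 3.12 and 5.12. They began at 14493495, 58390070 and 43995419, and all 3 overlapped H3K27ac.

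**Figure D3:**
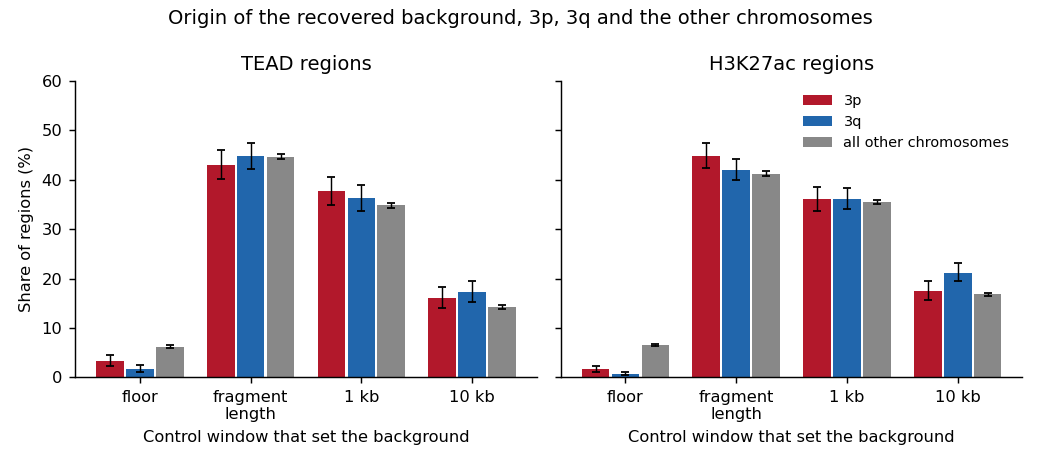
Share of TEAD regions (left) and H3K27ac regions (right) whose background was the floor or was set by the fragment-length, 1 kb or 10 kb control window, on 3p, 3q and all other chromosomes, with 95% Wilson intervals. On 3p the floor set 3.24% and 1.58% of regions, against 1.67% and 0.646% on 3q and 6.18% and 6.48% over all other chromosomes pooled.

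Enrichment at the summit was alike on both arms. TEAD fold had a median of 7.13 on 3p (interquartile range 5.49 to 11.2) and 7.09 on 3q (5.38 to 11.3), and the median summit had 25 reads on each. H3K27ac fold had a median of 6.23 on 3p (4.49 to 10.9) and 6.02 on 3q (4.48 to 10.6), with 23 reads at the summit on 3p and 24 on 3q. The rest of the genome had medians of 7.14 for TEAD and 6.57 for H3K27ac. TEAD regions were 453 bp wide on 3p and 474 bp on 3q, and H3K27ac regions 924 and 954 bp, all as medians. Of the TEAD regions, 100 on 3p (9.54%, 7.91 to 11.5%) and 110 on 3q (8.33%, 6.96 to 9.95%) reached 20-fold, against 9.26% over all chromosomes, so strong TEAD regions were about as frequent on the arm as elsewhere.

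Along 3p the H3K27ac and TEAD folds did not peak in the same place. H3K27ac fold had its highest bin medians from 45 to 50 Mb (8.57) and from 50 to 55 Mb (9.03), with 32 and 37 reads at the summit, while the median of these medians over the 18 bins of the arm was 6.02. In the bin from 50 to 55 Mb TEAD fold had its lowest median on the arm, 5.94. Its highest, 9.20, was at the telomeric end, from 0 to 5 Mb, over 24 regions.

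Most TEAD regions on 3p lay in acetylated chromatin, as elsewhere. An overlap of at least 1 bp with H3K27ac, called marked here, was found for 716 TEAD regions on 3p, 68.3% (65.4 to 71.1%), and for 935 on 3q, 70.8% (68.3 to 73.2%). The share over all chromosomes was 68.4%. The arms differed by −2.51 percentage points (−6.25 to 1.21), an interval that holds 0. The difference was larger for the position of the summit. Of all TEAD summits, 52.2% on 3p (49.2 to 55.2%) fell within acetylated regions and 59.0% on 3q (56.3 to 61.6%), against 55.3% over all chromosomes, a difference of −6.82 points (−10.8 to −2.79). H3K27ac regions with TEAD were also narrower on 3p, with a median of 1528 bp against 1810 bp on 3q, and the part of that width in the difference was not tested.

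Marking was more frequent at higher background, on 3p as over all chromosomes. In the lowest quintile of recovered background, with limits set over the whole genome, 35.4% of the 161 TEAD regions on 3p (28.4 to 43.1%) were marked, against 27.4% of 135 on 3q (20.6 to 35.5%) and 41.3% over all chromosomes. In the highest quintile 89.8% of 196 on 3p (84.8 to 93.3%) were marked, against 84.5% of 290 on 3q (79.9 to 88.2%) and 85.1% over all chromosomes. The shares were thus higher at higher background on both arms. With the arms compared within quintiles, a step added after seeing the data, the difference was 0.686 points in favour of 3p, given without an interval. A larger part of the TEAD regions of 3p fell in the lowest quintile, 15.4% against 10.2% on 3q. The part of background in the difference in marking was not tested. By fold, marking on 3p was lowest in the fourth decile (58.0%, 48.8 to 66.8%) and highest in the tenth (88.8%, 81.4 to 93.5%).

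**Figure D4:**
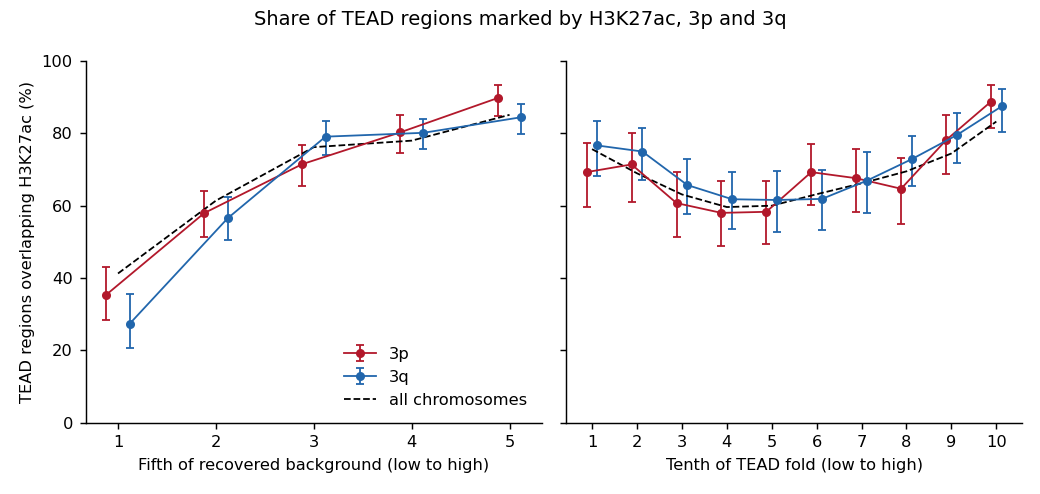
Share of TEAD regions overlapping H3K27ac, by quintile of recovered background (left) and by decile of TEAD fold (right), for 3p, 3q and all chromosomes, with 95% Wilson intervals for the arms. On 3p the share climbs from 35.4% to 89.8% with background, and is lowest in the fourth decile of fold at 58.0%.

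Marking also varied along the arm. Among bins with at least 20 regions of each list, it was lowest from 20 to 25 Mb, at 50.8% of 65 TEAD regions (38.9 to 62.5%), where TEAD was as frequent as H3K27ac (65 and 64 regions). It was highest at the telomeric end, at 79.2% of 24 regions (59.5 to 90.8%), and was 77.8% of 81 (67.6 to 85.5%) from 50 to 55 Mb. Bins of 3q ranged from 47.8 to 88.7%. Marked TEAD regions on 3p had a median fold of 7.48 and 29 reads at the summit, and the 332 unmarked ones a median fold of 6.70 and 20 reads. Of the unmarked TEAD regions, 29.5% on 3p (24.9 to 34.6%) and 29.9% on 3q (25.5 to 34.6%) lay within 5 kb of H3K27ac. A further 24.7% on 3p and 24.4% on 3q were more than 50 kb away. Calling a region unmarked says only that no overlapping H3K27ac peak was listed.

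From the side of the acetylated regions, 651 of those on 3p held TEAD, 42.9% (40.4 to 45.4%), against 41.6% on 3q (39.5 to 43.8%) and 41.7% over all chromosomes. On 3p 556 held exactly 1 TEAD region, 73 held 2 and 22 held 3 or more. The share was highest in the widest decile of H3K27ac regions, at 91.5% on 3p (85.8 to 95.1%) and 87.7% on 3q (82.9 to 91.2%), with 88.2% over all chromosomes. From the seventh to the ninth decile it was lower on 3p than on 3q, at 41.4, 53.3 and 69.9% on 3p against 50.3, 58.7 and 74.6% on 3q. The intervals of the arms overlapped in each of these deciles. In the narrowest decile 35 of 155 held TEAD on 3p, 22.6% (16.7 to 29.8%), against 20 of 212 on 3q, 9.43% (6.19 to 14.1%), and 14.0% over all chromosomes. Those intervals did not overlap, though this decile was singled out after its values were seen. Where the TEAD summit lay inside H3K27ac, its median distance from the H3K27ac summit was 380 bp on 3p (257 to 634 bp) and 428 bp on 3q (260 to 720 bp). The distance lay between 300 and 450 bp for 28.5% of these summits on 3p (24.9 to 32.4%) and 21.3% on 3q (18.6 to 24.3%), with 23.5% over all chromosomes (22.9 to 24.1%). It was within 150 bp for 9.87% on 3p (7.65 to 12.7%) and 10.8% on 3q (8.79 to 13.2%), with 11.2% over all chromosomes. The distance classes were looked at after earlier results were known.

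The strongest TEAD region of the arm reached 109-fold (counting interval 96.4 to 122), with 278 reads at the summit over a background of 1.57, at chromosome 3 from 66101257 to 66102092. It stood at place 3 by fold in the whole TEAD list, above the strongest of 3q, which was 91.5-fold (81.7 to 102) from 134044898 to 134047509. Its H3K27ac region was 1624 bp wide at 13.9-fold, held no other TEAD region, and lay in a domain ranked only 10286 by acetylation. The next regions were far weaker, and their intervals overlapped one another.

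Among these, the region from 11641671 to 11642458 reached 62.2-fold (53.7 to 71.6) and that from 58546302 to 58547412 reached 59.1-fold (51.7 to 67.3). The regions starting at 29735215, 51377662, 52541136 and 49415045 lay between 55.03- and 57.2-fold. Those starting at 71552900 and 24343710 were at 49.98- and 49.1-fold. Of the 10 strongest, 9 were marked, near the share in the highest decile of TEAD fold, 88.8% on 3p and 83.3% over all chromosomes. The H3K27ac fold under those 9 ran from 6.11 to 17.5. In 7 of the 9 the TEAD summit lay inside the H3K27ac region. The region at 71552900 lay in an H3K27ac region of 12998 bp with 4 TEAD regions, and in the other 8 the H3K27ac region held no further TEAD region.

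The exception among the 10 lay in an empty stretch. The TEAD region from 76546656 to 76547408 reached 55.7-fold (47.8 to 64.7) with 172 reads at the summit and lay 1061 kb from the nearest H3K27ac region. It separated 2 of the stretches of over 1 Mb without any other region, from 75485844 to 76546655 and from 76547409 to 77873857. The other unmarked regions of highest fold were weaker. The region from 12269195 to 12269983 (40.4-fold, 33.9 to 47.9) lay 28.5 kb from H3K27ac. That from 9217014 to 9217734 (37.0-fold, 29.6 to 45.7) lay only 246 bp from it, on a background at the floor. Those from 62553041 (31.6-fold) and 59226217 (29.5-fold) lay 4.42 and 2.33 kb away. Strong TEAD regions without the mark were thus found both beside acetylated chromatin and far from it.

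The strongest H3K27ac regions of 3p were not the strongest TEAD sites. The highest, from 30646594 to 30649217, reached 42.0-fold (35.4 to 49.4) with 142 reads and held 1 TEAD region of 7.09-fold. The regions from 12704240 to 12706262 (37.0-fold, 30.8 to 44.2) and from 47204144 to 47207036 (36.1-fold, 29.6 to 43.6) each held 1, of 7.60- and 7.21-fold. The region from 67703757 to 67705913 (34.4-fold) held 1 of 4.19-fold, and that from 71626890 to 71635268 (34.8-fold) held 2, the stronger at 14.2-fold. All 5 carried TEAD, in 4 of them at a fold close to or below the median of the arm, 7.13. Over all H3K27ac regions 42.9% held TEAD on 3p and 41.7% over all chromosomes. On 3p those with TEAD were also stronger in general, with a median H3K27ac fold of 8.82 against 5.15 without it. The counting intervals of the 5 overlapped, so their order is not resolved. The highest H3K27ac fold was 42.0 on 3p and 35.5 on 3q, and the value of 3q lies inside the interval of 3p, 35.4 to 49.4.

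Fewer large clusters of acetylation were counted on 3p than on 3q. Here H3K27ac regions were merged into domains across gaps no longer than 2.5 times 5 kb. A domain's score was its regions' fold multiplied by width, added up, and domains are called large where the curve of score against rank, both scaled to 1, is steeper than a slope of 1. On 3p 23 of 640 domains were large, 3.59% (2.41 to 5.33%), against 40 of 826 on 3q, 4.84% (3.58 to 6.53%), and 3.82% over all chromosomes. This gave 2.54 large domains per 10 Mb on 3p (1.61 to 3.81) and 3.83 on 3q (2.74 to 5.22), a ratio of 0.663 (0.397 to 1.11) whose interval holds 1. Over all other chromosomes there were 2.82 per 10 Mb, and the ratio of 3p to these was 0.901 (0.595 to 1.36). Large domains held 206 H3K27ac regions on 3p, 13.6% (11.9 to 15.4%), against 21.96% on 3q (20.2 to 23.8%) and 16% over all chromosomes. Of the TEAD regions, 140 on 3p lay in them, 13.4% (11.4 to 15.6%), against 19.7% on 3q (17.6 to 21.9%) and 14.7% over all chromosomes. The intervals on these shares may be too narrow, because neighbours within a domain share their place.

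The highest-ranked domain of 3p, at place 23 of the genome, spanned 93.3 kb from 14438961 to 14532243, with 17 H3K27ac and 15 TEAD regions. The highest of 3q, at place 16, spanned 166 kb from 172229543 to 172395270 with 18 TEAD regions. The second of 3p, from 5007415 to 5069868, held 7 H3K27ac regions of up to 31.2-fold and 7 TEAD regions of up to 35.5-fold. The third, from 45125155 to 45268294, was the longest of the arm at 143 kb and held 30 H3K27ac and 18 TEAD regions, the strongest TEAD region at 45.8-fold. All TEAD regions in these 3 domains were marked, against 68.4% over all chromosomes. The same held in most large domains of both arms, and domains are built from H3K27ac regions, so this sets these 3 apart in nothing.

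The fourth domain, from 53254233 to 53307295, was strong in acetylation, up to 26.8-fold, and held 5 TEAD regions, none above 8.79-fold. The fifth, from 71543329 to 71614044, showed the reverse, with H3K27ac no higher than 14.7-fold and 12 TEAD regions of up to 49.98-fold. Each of the 23 large domains of 3p held between 1 and 18 TEAD regions, with a median of 5, as on 3q. The median span was 31.1 kb on 3p and 41.2 kb on 3q.

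**Figure D5:**
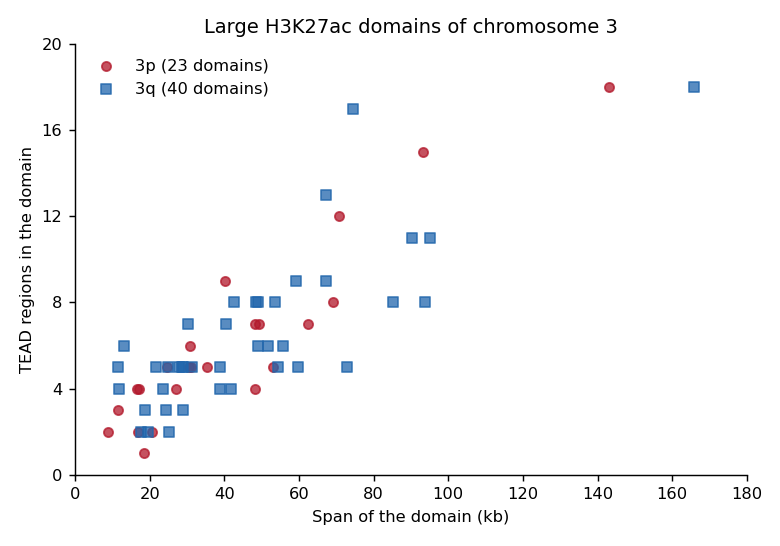
Number of TEAD regions against the span (kb) of each large H3K27ac domain, for the 23 domains of 3p and the 40 of 3q. Longer domains tend to hold more TEAD regions on both arms, up to 18 on each, and the longest of 3p spans 143 kb.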

How the data were processed

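Peak lists of 1 TEAD and 1 H3K27ac ChIP library were used, each list deposited for 1 library. The submitters' processing notes name MACS2, fastp, Bowtie2 2.4.5 and the hg19 build, without roles, order or parameters. Per peak the authors deposited the fold over the caller's background (a ratio), the −log10 p and the −log10 q of the summit, the summit position, and a score that was not used. All are the authors' values, used within each list. The lowest deposited −log10 q was 2.03 for TEAD and 2.05 for H3K27ac. Total reads per library are unknown, and no summit had fewer than 7 reads.

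Pileup and background were solved from (pileup + 1)/(background + 1) = fold and the Poisson probability of more reads than the pileup. The arithmetic was tested on simulated data built from the recovered values with the same formulas. That test cannot show that the caller used these formulas. The window steps assume fragments of 269 bp (TEAD) and 299 bp (H3K27ac), the shortest regions, and a 10 kb count divisible by 10 was counted as 1 kb. Arm lengths were 90.5 Mb for 3p and, to the last region, 104 Mb for 3q. Shares have Wilson intervals and densities exact Poisson intervals. Intervals on mean background and on ratios use a normal approximation and those on differences of shares Newcombe's method. Python 3.11.15, numpy 2.4.6, scipy 1.17.1 and pandas 2.3.3 were used.

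Regions named are the 10 TEAD, 5 unmarked TEAD and 5 H3K27ac regions of highest fold, the 5 highest-ranked domains and the 3 TEAD regions of highest background on 3p, with the strongest TEAD region and the highest domain of 3q. Chromosome Y was left out. The planned gene lists needed an hg19 annotation and were not used here. Members and lists were chosen with earlier results of these data known.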

Additional observations from a re-analysis of the deposited data

How the results depend on the processing

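Of 33 alternatives to 10 comparisons of 3p with 3q, 23 were planned and 10 were added after seeing the data. In 24 the value stayed within the interval of the first value and in 9 it left it. Leaving out stretches of over 1 Mb without regions, on 3p with the empty ends of the arm, gave density ratios of 1.04 for TEAD and 0.992 for H3K27ac. The choice of empty stretches, longer on 3p, makes such a shift in itself. Without the bins from 45 to 55 Mb of 3p the density ratios were 0.829 and 0.776, and the H3K27ac fold ratio was 0.977. Without those from 75 to 90 Mb the density ratios were 1.07 and 1.02. Those bins were picked for their high or low values and removed from 3p alone, so these shifts were fixed by the choice and say nothing about stability. Requiring the TEAD summit inside H3K27ac gave a difference in marking of −6.82 points. The 10 kb control window alone gave a background ratio of 0.933 at H3K27ac regions. For the last 2, the cause was not tested. The stricter thresholds, −log10 q of at least 5 or at least 5-fold, gave density ratios of 0.916 to 0.936 for TEAD and 0.881 to 0.891 for H3K27ac. Against −2.51 points at first, the difference in marking was −2.99 at −log10 q of at least 5 and −4.15 at 5-fold. It was −6.06 where at least 50% of the TEAD region had to lie in H3K27ac, and 0.686 within quintiles of background. These 4 values stayed within the first interval. The difference in the share of H3K27ac regions with TEAD was −1.34 points at 5-fold, against 1.23 without that threshold. Joining regions over 5 kb gave 31 large domains on 3p and 49 on 3q, a ratio of 0.730. No paired analysis was possible because each antibody has 1 library. Library depth is unknown, so what it limits was not tested. Bins from 75 to 90 Mb held fewer than 20 regions of each list and were left out of the ranges of background.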
